A study of Mus musculus with 46 samples.

Results

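Gene transcription in the cecum was compared between mice on a low fat diet (LFD) and mice on a high fat diet (HFD), neither with added inulin. The arrays were chosen by their titles, which gave 5 LFD and 6 HFD cecum arrays, 11 of the 22 cecum arrays and of the 46 arrays in the series; the other cecum arrays came from mice on HFD with inulin or with inulin esters of propionate and butyrate, and 24 arrays measured liver. All mice were males of the C57Bl/6 strain, started their diet at 12 weeks of age, ate it for 8 weeks and were 20 weeks old at sampling. Fat gave 45% of the energy of the HFD and 10% of that of the LFD. By the diet list of the study the LFD also held more sucrose and corn starch, less maltodextrin and less energy per gram. Effects of less fat and of more sugar or starch therefore cannot be told apart here. Cecum contents were removed before RNA was extracted from frozen tissue, and each RNA was labelled with the dye Cy3 and hybridised alone to an Agilent mouse array, on which the brightness of a spot measures the RNA bound to its probe. The labels number the samples within a diet, and the methods of the study speak of them as samples of mice. Exact permutation P values rest on the LFD and HFD samples alone. Limma P values in cecum rest on the spread between samples within all 4 cecum diets, so that the inulin arrays count in them. Values are log2 signals after normalisation over the cecum arrays, and differences are LFD minus HFD on the log2 scale, so that a difference of 1 is a doubling.

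The cecum is the blind pouch at the junction of small and large intestine in which bacteria ferment what the small intestine has not absorbed. Its wall holds an epithelium of absorptive and mucus-secreting goblet cells, lymphoid follicles rich in B and T cells, smooth muscle, nerve ganglia and attached fat. Intestinal epithelial cells take up dietary fatty acids, burn some of them and can also make fatty acids from sugars, a pathway that a diet rich in fat is known to lower in liver.

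On the arrays of both diets the tissue carried transcripts of goblet cells and absorptive colonocytes. All 15 goblet cell genes of a marker list and 16 of 18 absorptive colonocyte genes were well above background throughout at least 1 of the diets. The mean log2 level of the goblet cell list lay between 14.07 and 14.26 on the HFD arrays and averaged 14.09 ± 0.18 (SD) on the LFD arrays. These lists do not tell cecum from other parts of the intestine, and small intestine markers on single arrays are given below. Between 49.81% and 55.88% of spots were well above background on the HFD arrays and between 51.89% and 55.11% on the LFD arrays. The 11 arrays correlated with each other at r between 0.964 and 0.989 over 55 pairs, and no 2 arrays held identical values.

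Several arrays stood apart from the others of their diet. LFD 4 had a mean level of 8.42 for the adipocyte marker list, against 10.79 to 11.75 on the other LFD arrays and 10.17 to 12.43 on the HFD arrays. On that array Cfd, the fat cell protease adipsin, measured 3.36, against 14.38 to 15.86 on the other LFD arrays, and the defining fat cell genes Adipoq, Plin1, Retn and Cfd were not above background there. LFD 4 was also nearer, in mean Euclidean distance over all probes, to the 11 arrays of the inulin diets (159.4) than to the other LFD arrays (160.9), the only LFD array of which this held. It held also of HFD 1, at 160.9 against 161.8 to the other HFD arrays, and of HFD 3, at 153.7 against 162.4. Every HFD array was nearer to the LFD arrays than to the other HFD arrays, as for HFD 3 at 143.2 and 162.4.

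HFD 5 stood apart in another way. Its small intestine marker list had a mean level of 16.13, against 10.42 to 11.36 on the other HFD arrays, with Fabp6, the bile acid binding protein of the ileum, at 18.77 against a median of 10.75 over the HFD arrays, and Sis, the brush border enzyme sucrase-isomaltase, at 14.81. The same list measured 13.74 on LFD 2 and 12.49 on LFD 3, and 10.26 to 10.75 on the remaining LFD arrays. Defa21, a Paneth cell defensin, measured 15.92 on HFD 5, 14.86 on LFD 2 and 13.55 on LFD 3, while its HFD median was 3.15. Of the 15 genes of this list 12 had a probe, 7 were well above background on every array of a diet, Clec2h was the most abundant, and Gip was not above background on any of the 11 arrays. Repeated spots of one probe also varied more on HFD 2, with a median coefficient of variation of 13.8%, than on the other 10 arrays, where it lay between 3.67% and 5.04%. Many of the results below are therefore also given without LFD 4, without HFD 5, or without HFD 5, LFD 2 and LFD 3; the last set was chosen after the data were seen.

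**Figure D1:**
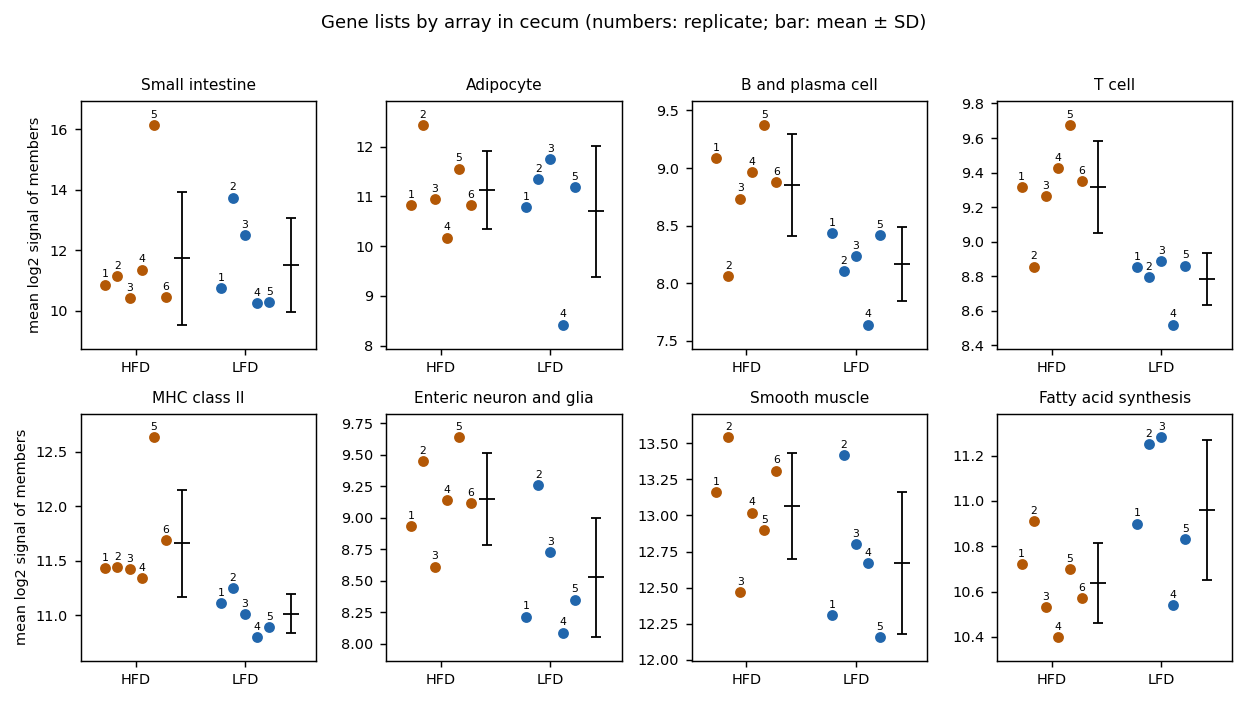
Mean log2 signal of the detected members of 8 gene lists on each HFD (orange) and LFD (blue) cecum array, with the replicate number above each point and the mean ± SD at the right of each group; each panel has its own axis, which does not start at 0. HFD 5 stands out in the small intestine panel at 16.13 and in the MHC class II panel at 12.63, and LFD 4 in the adipocyte panel at 8.42.

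Differences between the diets were few and small. With limma, 356 of 55681 probes differed by more than 1.5-fold at an unadjusted P under 0.01, the criteria by which probes are called here, 199 higher and 157 lower on LFD. On none of the 11 arrays were 95 of the 356 well above background, and among the 26608 probes detected throughout at least 1 diet 81 were called higher and 101 lower. The count was 121 after a normexp background correction, 149 without background correction and 151, 69 higher and 82 lower, in the deposited processed values, with 75, 90 and 90 of the 356 among them. The 356 were 0.639% of the probes, 0.357% higher and 0.282% lower, and 582 probes had a P under 0.01 where 557 would be 1% of them. None reached an adjusted P of 0.05 after Benjamini-Hochberg adjustment in limma, the lowest being 0.599, while 2919 probes, 5.24%, had an unadjusted P under 0.05. Without LFD 4, 242 probes (0.435%) were called, 178 higher and 64 lower, of which 167 were among the 356, and 2 had an adjusted P under 0.05 in limma, Omd and a probe for a long non-coding RNA region, neither well above background on any array of the 2 diets. The split between higher and lower calls moved with the scaling: 133 and 219 when each array was scaled to its 75th percentile, and 265 and 124 when the cyclic loess ran through every pair of arrays. With only the HFD and LFD arrays in the fit 325 probes were called, 165 higher and 160 lower, 221 of them among the 356.

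Known genes, each taken by its brightest probe, numbered 19397. Of these 58 were called higher and 94 lower on LFD, 0.784% together, and 60 of the 152 had no overlap between the LFD and the HFD arrays, where 1.12% of all known genes had none, 0.449% with LFD higher and 0.675% with LFD lower. In 110 of the 152 the signal was well above background on every array of the diet in which it was higher, 0.832% of the 13218 known genes detected in this way in either diet. Without LFD 4, 0.397% of known genes were called, 45 higher, 31 of them among the 58, and 32 lower, 0.165%, with 29 of them among the 94. Without LFD 2 the known genes called were 85 higher and 201 lower, and with slide and slide row as fixed blocks 66 and 156. With only the HFD and LFD arrays in the fit they were 35 higher and 105 lower. Over the whole profile, 9.89% of the squared distance between the 11 arrays lay between the diets, P = 0.43 in an exact permutation test of all 462 regroupings, and without LFD 4 the share was 10.2% with P = 0.69. As these are bulk samples, fewer cells of a type and less RNA per cell cannot be told apart in any of the results that follow.

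**Figure D2:**
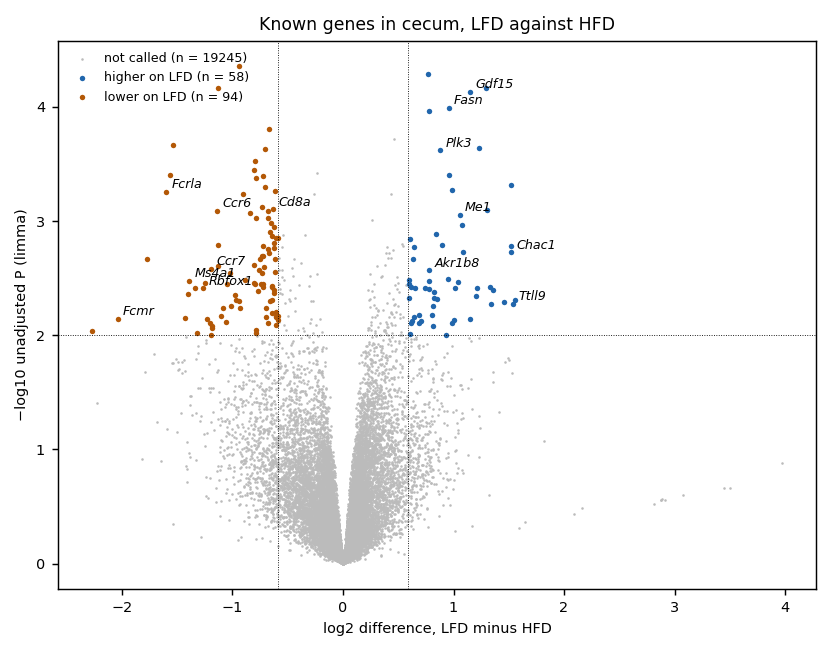
Difference (LFD minus HFD, log2, x axis) against the -log10 of the unadjusted limma P (y axis) for 19397 known genes in cecum. Dotted lines mark a fold of 1.5 and a P of 0.01; blue points are the 58 genes called higher on LFD and orange points the 94 called lower, and no gene passed adjustment over all probes.

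Genes of fatty acid synthesis were called higher on LFD. Of 20 genes of fatty acid and triglyceride synthesis with a probe, 2 were called higher and none lower, where 0.299% of known genes were called higher, and 5 had an unadjusted P under 0.05, all higher on LFD, where 3.25% of known genes did so. Their median difference was 0.20, against -0.003 over all known genes, and 0.23 without LFD 4. Without HFD 5, LFD 2 and LFD 3 the median was 0.11, 7 of the 20 differences were negative, and 1 gene was called higher and 3 had a P under 0.05, where 0.418% and 3.17% of known genes were. Both called genes belong to the same route from sugar to fat.

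Fasn, which encodes the fatty acid synthase that builds palmitate, measured 8.91, 9.6, 9.68, 8.54 and 8.97 on LFD 1 to 5, and on the HFD arrays from 8.00 to 8.56 with a median of 8.13. Every LFD array but LFD 4 was above all HFD arrays. The difference was 0.96 ± 0.20 (SE), a fold of 1.94, with limma P = 1.0e-04 and adjusted P = 0.599, and P = 0.0043 in a two-sided exact permutation test. It was called under all 28 alternative settings and was 1.11 without LFD 4 but 0.59 without HFD 5, LFD 2 and LFD 3. Me1, the malic enzyme that supplies NADPH for fatty acid synthesis, measured 11.79, 12.41, 12.38, 11.37 and 11.81 on LFD 1 to 5, and 10.47 to 11.29 on the HFD arrays with a median of 10.81. Here all LFD arrays were above all HFD arrays. The difference was 1.06 ± 0.27, with limma P = 8.9e-04 and adjusted P = 0.667, and the exact permutation P of 0.0022 is the smallest that 462 regroupings allow. All 3 Me1 probes were called. Without HFD 5, LFD 2 and LFD 3 the Me1 difference was 0.74, which was not past the criteria.

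Other enzymes of the route differed by less. Acaca, the acetyl-CoA carboxylase that commits carbon to fatty acids, differed by 0.44 ± 0.14, with a limma P under 0.01 but a fold under 1.5, and by 0.54 without LFD 4. Acly, which makes cytosolic acetyl-CoA, differed by 0.24, and G6pdx, a source of NADPH, by 0.24. Scd1, the stearoyl-CoA desaturase, measured 12.62, 12.97, 13.49, 10.31 and 12.96 on LFD 1 to 5 and 10.17 to 12.78 on the HFD arrays; with LFD 4 low the difference of 0.93 ± 0.72 did not pass, and without that array it was 1.47. Thrsp, a lipogenic regulator abundant in fat tissue, likewise measured 7.0 on LFD 4 against 11.08 to 12.59 on the other LFD arrays. The regulators Srebf1 and Mlxipl differed by 0.15 and 0.05. LFD 4 is also the array with the low adipocyte list, and the part of fat tissue in these lipogenic values was not tested.

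In the opposite pathway no gene was called. Of 30 genes of fatty acid oxidation and ketogenesis 26 were higher on LFD, with a median difference of 0.11, and 3 had an unadjusted P under 0.05 with a higher and 1 with a lower signal, where 3.25% and 3.01% of known genes had. Pdk4, which restrains glucose oxidation, differed by 0.66 ± 0.37, which was not past the criteria. The list level of HFD 5, 12.05, was below the 12.43 to 12.60 of the other HFD arrays, and without HFD 5 the median was 0.03, with 20 higher and 10 lower. Without HFD 5, LFD 2 and LFD 3 it was again 0.03, with 18 and 12. None of 25 genes of cholesterol synthesis and uptake was called, and Hmgcs1, which makes HMG-CoA for sterol synthesis, differed by -0.21 ± 0.22.

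Gdf15, Plk3, Chac1 and Atf3 were also called higher. Gdf15, a secreted stress cytokine of the TGF-beta family, measured 9.08, 8.47, 8.73, 9.47 and 9.32 on LFD 1 to 5, and 7.18 to 8.35 on the HFD arrays with a median of 7.87. All LFD arrays were above all HFD arrays. The difference was 1.14 ± 0.23, a fold of 2.21, with limma P = 7.3e-05, adjusted P = 0.599 and exact permutation P = 0.0022, and it was called under all 28 alternatives. It was 1.03 without LFD 4 and 1.01 without HFD 5. Plk3, a stress-activated polo-like kinase, measured 11.70, 11.67, 11.91, 11.94 and 11.85 on LFD 1 to 5 and 10.48 to 11.46 on the HFD arrays, again without overlap. Its difference was 0.88 ± 0.20, with P = 0.0043 in the exact permutation test and adjusted P = 0.599 in limma, called under all 28 alternatives.

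Chac1, which degrades glutathione and is a known target of the transcription factor Atf4, measured 9.02, 7.82, 8.00, 10.42 and 10.37 on LFD 1 to 5, and on the HFD arrays 7.22 to 8.23 with a median of 7.39. LFD 2 and LFD 3 lay within the HFD range and the other LFD arrays above it. The difference was 1.52 ± 0.42 with exact permutation P = 0.017, 1.19 without LFD 4 and 2.45 without HFD 5, LFD 2 and LFD 3. Atf3, a stress-induced transcription factor, measured 11.05, 10.98, 11.42, 11.39 and 11.19 on LFD 1 to 5 and 9.49 to 10.98 on the HFD arrays. The groups did not overlap, LFD 2 lying just above the highest HFD array. Its difference was 0.81 ± 0.28 with exact permutation P = 0.0043, and the limma call was lost under 15 of 28 alternatives, among them without LFD 4, where the difference was 0.77. Of 20 genes of the unfolded protein response none was called and none had a P under 0.05, and 15 were lower on LFD, with a median difference of -0.08 and a range from -0.33 for Pdia6 to 0.37 for Trib3. Ddit3 differed by 0.08 and Atf4 by -0.04. Without HFD 5 the median of that list was -0.0081, 9 were higher and 11 lower, and 1 was called higher, where 0.284% of known genes were. Of 19 heat shock and immediate early genes Atf3 alone was called, where 0.299% of known genes were called higher, 9 were higher and 10 lower, and the median was -0.03. Without LFD 4 that median was 0.13, with 11 higher, 8 lower and none called, and without HFD 5 it was 0.07, with 12 higher and 7 lower. The promoters of Chac1 and Atf3 hold the letters TTGCATCA, which join parts of a C/EBP and an ATF site as in the composite element that Atf4 is known to bind. They are shown as the 250 bases before the start of the gene, from RefSeq on mouse build GRCm38.p6, 5′ to 3′ on the strand of the gene, with those letters in capitals.
Chac1, chr2:119350992-119351241, plus strand: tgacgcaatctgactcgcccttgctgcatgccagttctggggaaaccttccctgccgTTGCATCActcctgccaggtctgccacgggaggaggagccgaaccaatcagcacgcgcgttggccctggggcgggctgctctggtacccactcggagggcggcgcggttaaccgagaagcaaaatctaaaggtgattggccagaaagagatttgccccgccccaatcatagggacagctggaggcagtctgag
Atf3, chr1:191183334-191183583, minus strand: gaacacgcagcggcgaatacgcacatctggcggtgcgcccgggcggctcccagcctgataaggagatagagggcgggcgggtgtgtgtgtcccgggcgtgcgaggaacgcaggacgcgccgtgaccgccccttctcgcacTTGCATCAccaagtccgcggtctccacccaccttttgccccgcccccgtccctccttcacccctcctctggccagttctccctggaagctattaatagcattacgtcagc
The letters start 193 bases before the start of Chac1 and 110 bases before that of Atf3, and were not found before Gdf15 or Plk3. On either strand they occur in 0.791% of 32851 promoter stretches of that length, and a match describes the letters only.

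The enzymes Akr1b8, Cbr3 and Gclc were called higher as well. Akr1b8, an aldo-keto reductase, measured 14.72, 13.92, 14.04, 13.95 and 14.41 on LFD 1 to 5 and 12.43 to 13.92 on the HFD arrays, with LFD 2 just above the highest HFD array. The difference was 0.78 ± 0.23 with exact permutation P = 0.0043, and without HFD 5, the lowest HFD array, it was 0.58, just under the fold of the criteria. Cbr3, a carbonyl reductase, differed by 0.95 ± 0.28 with exact permutation P = 0.013 and did not overlap, its HFD arrays running from 10.93 on HFD 5 to 13.13 and its LFD arrays from 13.13 to 13.72. Without HFD 5 its difference was 0.65, and without LFD 4 it was 0.87 and not past the criteria. Gclc, the rate-limiting enzyme of glutathione synthesis, differed by 0.62 ± 0.21 with exact permutation P = 0.054, but by 0.46 without LFD 4 and 0.44 without HFD 5, neither of them past the criteria. It was the 1 called gene of 19 in the oxidative stress list, where 0.299% of known genes were called higher, and 16 of the list were higher on LFD, with a median of 0.15. Of that list 3 had a P under 0.05, all higher, and without LFD 4 none was called, 1 had a P under 0.05, where 2.23% of known genes had and were higher, and the median was 0.13. Its partner subunit Gclm differed by 0.29 and Txnrd1, a thioredoxin reductase, by 0.18, while Nqo1, at 0.22, and Hmox1, at 0.32, had P above 0.05.

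Genes of B and T cells were among those called lower on LFD. Of 15 B and plasma cell genes 3 were called lower and none higher, where 0.485% of known genes were called lower, and 6 had an unadjusted P under 0.05, all lower, where 3.01% of known genes did so. Of the 15 differences 11 were negative and 4 positive, up to 0.36 for Pax5, and the median was -0.43. The median was -0.33 without LFD 4, -0.29 without LFD 3 and -0.20 without HFD 5, but -0.67 without HFD 6 and -0.66 without LFD 1. Without HFD 2, HFD 3 or LFD 5, each left out alone, 5 of the 15 were called lower, where 0.526%, 0.639% and 0.366% of known genes were. Of 15 T cell genes 3 were called lower, 8 had an unadjusted P under 0.05 and all 15 differences were negative, with a median of -0.54, and -0.44 without LFD 4. Of these T cell genes 5 were called lower without HFD 2 and 1 without HFD 5, where 0.526% and 0.433% of known genes were. With LFD 4 left out, 0 B cell genes and 1 T cell gene were called lower, where 0.165% of known genes were. In that setting 3 B cell and 6 T cell genes had a P under 0.05, all lower, as 1.68% of known genes did.

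Ms4a1, Fcrla, Fcmr, Cd79b and Tnfrsf13c, genes of B cells, were called lower. Ms4a1, which encodes CD20, measured 7.22, 6.12, 7.31, 5.82 and 7.0 on LFD 1 to 5, and 6.61 to 8.81 on the HFD arrays with a median of 8.29. The groups overlapped through HFD 2, the HFD array with the lowest signal. Its difference was -1.39 ± 0.42 with exact permutation P = 0.019, and -1.17 without LFD 4, which was not past the criteria. Fcrla, an intracellular Fc receptor-like protein of B cells, measured 5.13, 4.73, 5.22, 3.62 and 5.64 on LFD 1 to 5 and 5.21 to 6.95 on the HFD arrays, with HFD 2 again lowest. Its difference of -1.60 ± 0.39, with exact permutation P = 0.0087 and adjusted P = 0.599 in limma, was called under all 28 alternatives, though only 3 of 5 LFD arrays were well above background. Fcmr, the receptor for IgM, differed by -2.04 ± 0.68, and by -1.46 without LFD 4, where it measured 3.00 and was not above background. Cd79b, a signalling chain of the B cell receptor, differed by -1.13 ± 0.33, and by -0.95 without LFD 4. Tnfrsf13c, the receptor for the survival factor BAFF, differed by -1.20 ± 0.41, and by -0.97 without LFD 4, and lost its call under 13 of 28 alternatives. None of these 3 was past the criteria without LFD 4. A second Tnfrsf13c probe differed by 0.09, the opposite sign. Among genes of antibody-secreting cells, Jchain, the joining chain of IgA, differed by -0.34 ± 0.38, Sdc1 by 0.07 and Prdm1 by 0.24, none past the criteria.

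The chemokine receptors Ccr7 and Ccr6 were called lower too. Ccr7, the receptor by which naive lymphocytes and dendritic cells enter lymphoid tissue, measured 7.54, 7.76, 7.17, 6.43 and 7.29 on LFD 1 to 5 and 7.90 to 9.34 on the HFD arrays with a median of 8.38. All LFD arrays were below all HFD arrays. The difference was -1.19 ± 0.35 with exact permutation P = 0.0022, and -0.99 without LFD 4, which was not past the criteria. Ccr6, the receptor for Ccl20 on B cells and T helper cells of follicles, measured 8.20, 7.51, 8.37, 7.48 and 8.16 on LFD 1 to 5. On the HFD arrays it measured 8.21 on HFD 2 and 9.10 to 9.35 on the other 5, so that only HFD 2 lay within the LFD range. The difference of -1.14 ± 0.29, with exact permutation P = 0.0065 and adjusted P = 0.663 in limma, was called under all 28 alternatives.

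Of 15 T cell genes the 2 chains of CD8 had no overlap between diets. Among known genes 0.675% had none with LFD lower. Cd8a measured 6.73, 6.76, 6.98, 6.46 and 6.76 on LFD 1 to 5 and 7.03 to 7.77 on the HFD arrays, a difference of -0.63 ± 0.16 with exact permutation P = 0.0043 and adjusted P = 0.663 in limma. Cd8b1 measured 5.42 to 5.84 on the LFD arrays and 6.15 to 6.90 on the HFD arrays, a difference of -0.79 ± 0.20 with exact permutation P = 0.0022. Without LFD 4 these were -0.56, just under the fold of the criteria, and -0.76. Cd3g, a chain of the T cell receptor complex, differed by -0.64 ± 0.17, and by -0.49 and not past the criteria without LFD 4. It lost its call under 6 of 28 alternatives. Cd3d, Cd3e and Lck, with differences of -0.51, -0.40 and -0.44, had a P under 0.01 but a fold under 1.5. Cd4 and Foxp3, the markers of helper and regulatory T cells, differed by -0.15 and -0.0028, neither past the criteria. On HFD 2 the lists measured 8.07 for B cells and 8.86 for T cells, the lowest of the HFD arrays, and on LFD 4 they measured 7.64 and 8.52, the lowest of the LFD arrays. The part of sampled lymphoid tissue in these differences was not tested.

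**Figure D3:**
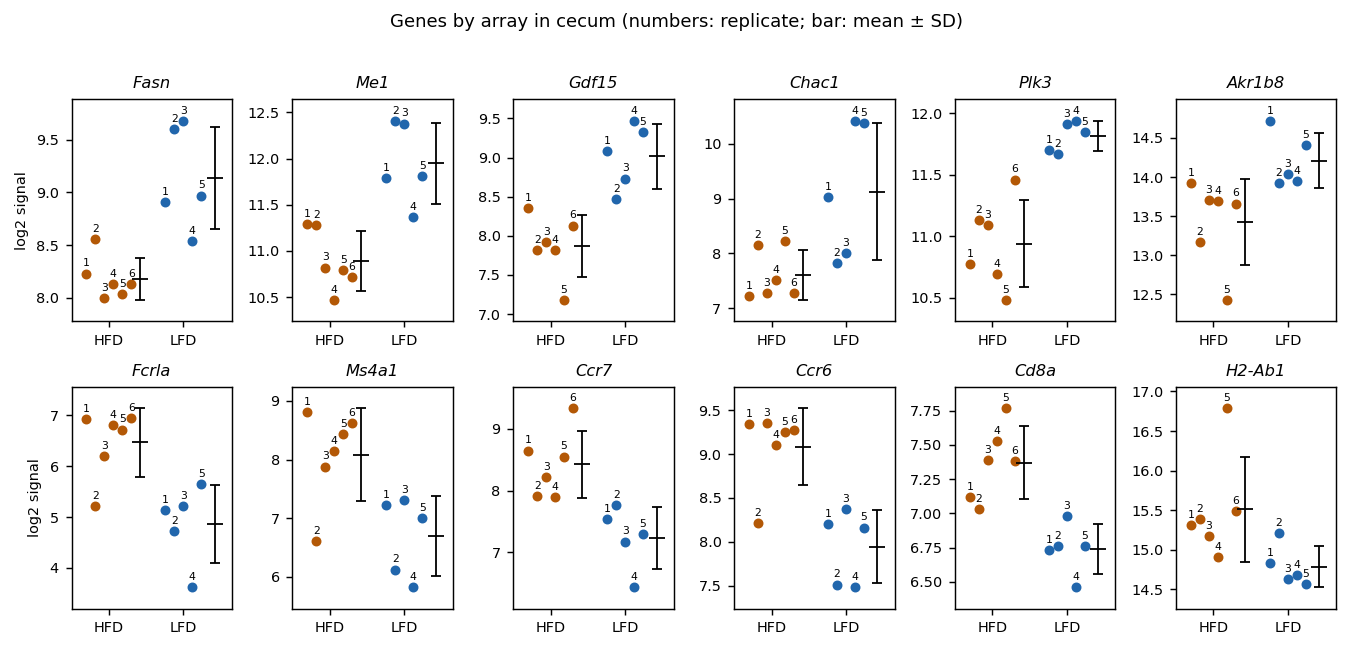
Log2 signal (y axis, own range in each panel) of 12 genes on each HFD (orange) and LFD (blue) cecum array, with the replicate number above each point and the mean ± SD beside each group. LFD points lie above all HFD points for Me1, Gdf15, Plk3 and Akr1b8 and below all HFD points for Ccr7 and Cd8a, while in Fcrla, Ms4a1 and Ccr6 HFD 2 falls among the LFD points.

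Genes of antigen presentation by MHC class II had lower signals on LFD, though none of them was called. Of 11 such genes 8 had an unadjusted P under 0.05, all lower, where 3.01% of known genes had, and 10 of 11 differences were negative, with a median of -0.70. All 15 macrophage and myeloid genes also had negative differences, none with a P under 0.05, with a median of -0.29 and -0.19 without LFD 4, and the B and plasma cell list, described above, had a median of -0.43 and a mean level that differed by -0.68. The part of neither list in the class II values was tested. Cd74, the invariant chain that escorts class II molecules, measured 13.62, 13.81, 13.37, 13.31 and 13.47 on LFD 1 to 5, and 13.89 to 15.79 on the HFD arrays with a median of 14.10. H2-Eb1, a class II beta chain, measured 14.53, 14.64, 14.34, 14.03 and 14.21 on LFD 1 to 5, and 14.75 to 16.17 on the HFD arrays. Neither of these 2 of the 11 genes overlapped between the diets, where 0.675% of known genes had no overlap with LFD lower. Their differences were -0.82 ± 0.34 and -0.71 ± 0.26. Ciita, the master regulator of class II transcription, differed by -0.67 ± 0.27, H2-Ab1 by -0.72 ± 0.29 and H2-Aa by -0.89 ± 0.41, while Ctss, a protease that trims the invariant chain, differed by 0.01.

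The class II difference was smaller without HFD 5. The mean level of the list was 10.80 to 11.25 on the LFD arrays, all below the 11.34 to 11.69 of HFD 1, 2, 3, 4 and 6, and HFD 5 was at 12.63. Without HFD 5 the median difference was -0.47 and 2 of 11 genes had a P under 0.05, where 2.86% of known genes had and were lower. Without LFD 4 the median was -0.68, with 3 genes at a P under 0.05 against 1.68% of known genes, and with both arrays left out it was -0.40 with 0 against 1.89%. Without HFD 4, 2 of the 11 genes were called lower, where 0.516% of known genes were. Within slides, the list level differed by -0.26, -0.37 and -1.31, the last on the slide that held HFD 5. HFD 5 is the array with the high small intestine markers, and their part in the class II values was not tested.

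Class II promoters are known for an X box followed by a Y box, an inverted CCAAT sequence. Of the 11 genes 8 had a promoter in the RefSeq table, and 7 of these held the letters GATTGG on the strand of the gene, all but Ctss, where 7.73% of 32851 promoter stretches did so and 14.6% did on either strand. Letters of the X box, AGCAACTGATG with any base at the third and the seventh position, occur on either strand in 0.259% of stretches and in 2 of the 8. Of the genes shown, H2-Eb1 and H2-DMb1 hold both sets of letters and H2-Aa and H2-Oa only GATTGG. They are the 250 bases before the gene start on build GRCm38.p6, 5′ to 3′ on the strand of the gene, with both sets of letters in capitals, on either strand, where GATTGG of the other strand reads CCAATC.
H2-Eb1, chr17:34305617-34305866, plus strand: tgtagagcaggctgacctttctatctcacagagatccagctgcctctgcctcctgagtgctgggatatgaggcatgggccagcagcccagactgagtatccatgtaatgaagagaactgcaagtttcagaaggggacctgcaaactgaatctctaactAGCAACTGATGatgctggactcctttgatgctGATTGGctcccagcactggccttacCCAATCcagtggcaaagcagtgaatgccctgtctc
H2-DMb1, chr17:34152941-34153190, plus strand: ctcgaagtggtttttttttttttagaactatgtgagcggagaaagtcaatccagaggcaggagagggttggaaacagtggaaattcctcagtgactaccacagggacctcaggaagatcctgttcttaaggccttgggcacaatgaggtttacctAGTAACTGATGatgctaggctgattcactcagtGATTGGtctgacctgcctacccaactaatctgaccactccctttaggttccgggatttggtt
H2-Aa, chr17:34287824-34288073, minus strand: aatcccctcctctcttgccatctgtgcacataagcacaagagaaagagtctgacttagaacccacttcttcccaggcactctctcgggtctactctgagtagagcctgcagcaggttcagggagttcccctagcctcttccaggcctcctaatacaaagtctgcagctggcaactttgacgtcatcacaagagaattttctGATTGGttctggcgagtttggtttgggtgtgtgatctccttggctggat
H2-Oa, chr17:34092129-34092378, plus strand: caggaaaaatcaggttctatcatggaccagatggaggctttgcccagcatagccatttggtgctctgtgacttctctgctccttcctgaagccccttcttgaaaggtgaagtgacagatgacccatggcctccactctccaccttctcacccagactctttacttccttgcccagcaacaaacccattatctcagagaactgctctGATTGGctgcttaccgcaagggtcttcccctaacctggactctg
GATTGG starts 60 bases before the gene start in H2-Eb1, 62 in H2-DMb1, 49 in H2-Aa and 44 in H2-Oa. These 4 genes differed by -0.71, -0.76, -0.89 and -0.70. The letters were counted after the class II values were seen and say nothing on which factor acts there.

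Neuronal genes were below the HFD median on 4 of the 5 LFD arrays when taken as a list. Of 15 genes of enteric neurons and glia none was called, 14 differences were negative and 3 had a P under 0.05, all lower, where 3.01% of known genes had, with a median of -0.80. Without LFD 4 the median was -0.62, 12 differences were negative and 1 had a P under 0.05 and was lower, where 1.68% of known genes were. Without LFD 2 it was -1.01, 3 genes were called lower and 9 had a P under 0.05, all lower, where 1.04% and 4.77% of known genes were so in that setting. Without HFD 5, LFD 2 and LFD 3 it was -1.16, with 1 called lower and 9 under 0.05, where 0.799% and 3.97% of known genes were. The list measured 8.22, 9.26, 8.73, 8.09 and 8.35 on LFD 1 to 5, and 8.61 to 9.64 on the HFD arrays with a median of 9.13. LFD 2 was above the HFD median and the other LFD arrays were below it. Single genes of neurons called lower were Rbfox1 and Rbfox3, neuronal splicing factors, at -1.26 ± 0.39 and -1.18 ± 0.40, Slc18a3, the vesicular acetylcholine transporter, at -1.18 ± 0.40, Ctnna2, a neuronal catenin, at -1.23 ± 0.41, and Faim2, an inhibitor of Fas-induced cell death in neurons, at -1.32 ± 0.46. All 5 were well above background on every HFD array, but on the LFD arrays Faim2 was so on 1 of 5, Rbfox3 on 2, Rbfox1 on 3 and Ctnna2 on 4. In each of these LFD 2 lay within the HFD range or above it. Without LFD 2 the 5 differences were between -1.69 and -1.52, and without LFD 4 between -1.24 and -0.98, none past the criteria. The second probe of Rbfox1 differed by -0.39 and that of Ctnna2 by -0.08, and the highest of 3 probes of Rbfox3 by 0.38, and 1 probe of each gene was called. Snap25, the brightest member of the list, differed by -0.00074 ± 0.20, and Chat, the 1 member with a positive difference, by 0.12.

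Of smooth muscle genes none was called. All 12 members had negative differences, none with a P under 0.05, and the median was -0.42, and -0.44 without LFD 4. Without LFD 2 it was -0.60, with 2 members under 0.05, where 4.77% of known genes were under it and lower. Without HFD 5, LFD 2 and LFD 3 it was -0.74, with 1 called lower and 3 under 0.05, against 0.799% and 3.97% of known genes. The list was lowest on LFD 5 and LFD 1, at 12.16 and 12.31, and on HFD 3, at 12.47, and highest on HFD 2 and LFD 2, at 13.54 and 13.42. Cnn1, a calponin of contractile muscle, measured 14.71, 16.06, 15.70, 15.19 and 14.59 on LFD 1 to 5 and 15.40 to 16.28 on the HFD arrays, a difference of -0.57 ± 0.32. LFD 2 was thus the highest LFD array for muscle as well as for nerve genes, and the part of the muscle layer in the neuronal values was not tested.

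Of 21 adipocyte genes none was called. The median difference was -0.41 with all arrays and 0.26 without LFD 4, with 13 and 5 of 21 genes lower. Without HFD 2 it was -0.01, with 11 lower and 10 higher. Fabp4, the fatty acid binding protein of fat cells, measured 14.03, 14.52, 15.44, 11.08 and 14.58 on LFD 1 to 5 and 12.88 to 16.34 on the HFD arrays. Its difference was -0.41 ± 0.88, and 0.30 without LFD 4. Cfd turned from -1.29 ± 2.31 to 1.02 in the same way. Lep, the hormone leptin, measured 2.73 to 7.28 on the LFD arrays and 4.87 to 9.08 on the HFD arrays, a difference of -1.24 ± 0.88, which did not pass.

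**Figure D4:**
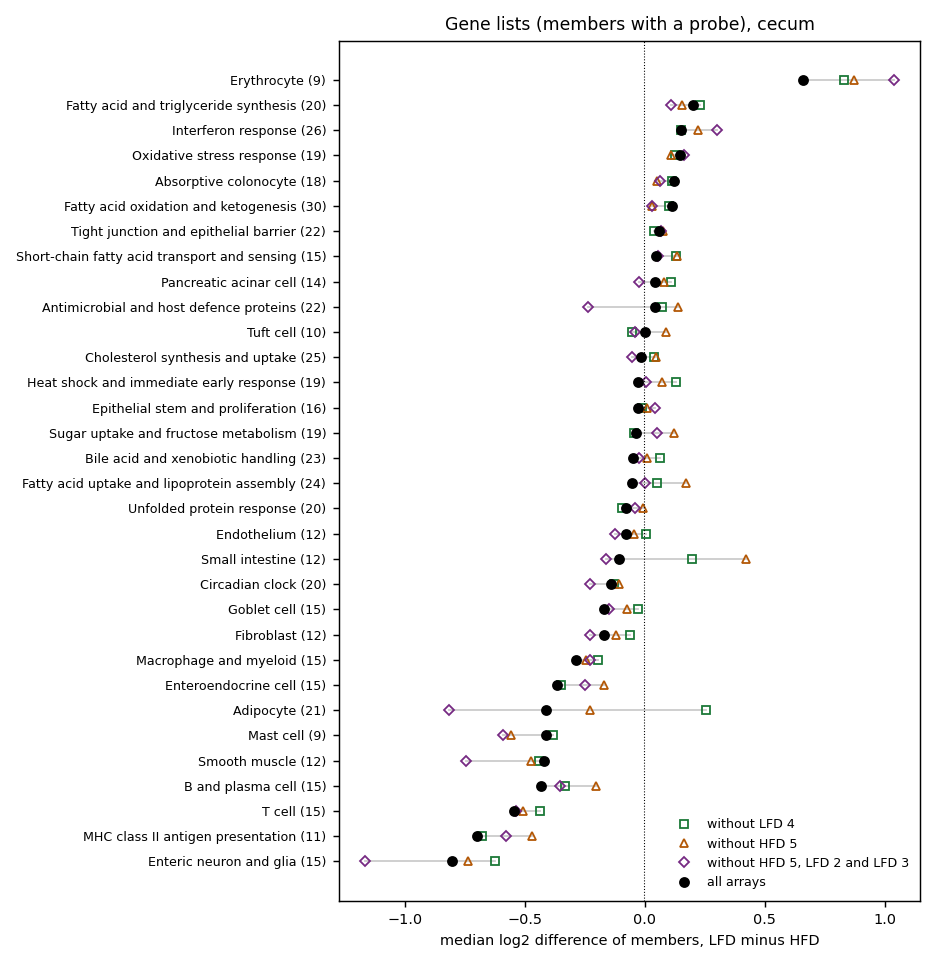
Median log2 difference (LFD minus HFD, x axis) of the members of 32 gene lists in cecum, with the number of members that have a probe in brackets; black points use all arrays, and open symbols leave out the arrays named in the key. The adipocyte list moves from -0.41 to 0.26 without LFD 4, while the T cell list stays between -0.54 and -0.44 over the points drawn and the dotted line marks the median of all known genes.

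Few epithelial and barrier genes had an unadjusted limma P under 0.05. Of 22 tight junction genes 2 did, both higher on LFD, where 3.25% of known genes did so, and 0 did without LFD 4. None of the goblet cell, absorptive colonocyte or epithelial stem and proliferation genes did. No gene of the goblet cell, absorptive colonocyte, epithelial stem and proliferation or tight junction lists was called, and their medians were -0.17, 0.12, -0.03 and 0.06. Without LFD 4 these were -0.03, 0.11, -0.01 and 0.04, and without HFD 5 they were -0.07, 0.05, 0.0085 and 0.08. Several genes were also measured by PCR in the study. There Saa1 and Saa2 in cecum of LFD mice differed from HFD comparably to mice on added fiber. For its other cecal targets the study reported no difference on LFD. Tex19.1, a germ cell gene, measured 6.72, 5.84, 7.48, 9.32 and 7.27 on LFD 1 to 5, and 3.89 to 7.38 on the HFD arrays. LFD 4 was the highest, 3 of 6 HFD arrays were above background, and the difference of 1.49 ± 0.57 had exact permutation P = 0.074, and it was 1.00 without LFD 4. Saa2 and Saa1, serum amyloid proteins that the colon epithelium also makes, differed by 0.85 ± 0.36 and 0.71 ± 0.39, Cldn23, a claudin of tight junctions, by 0.48 ± 0.18, Cldn4 by 0.30 ± 0.27 and Cldn5, the claudin of endothelium, by -0.50 ± 0.36. Muc2, the main mucin of goblet cells, differed by -0.14 ± 0.23 and Tff3, a goblet cell peptide, by -0.27 ± 0.13. None of these met the criteria. The unadjusted limma P was 0.016 for Tex19.1, 0.031 for Saa2 and 0.013 for Cldn23, each with adjusted P = 0.839. Without LFD 4 the unadjusted limma P was 0.073, 0.081 and 0.052. Ube2d2a, the reference gene of the PCR, differed by 0.0042 ± 0.07.

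The remaining genes named by size of rise belong to no list. Cyp4f15, a cytochrome P450 that hydroxylates fatty acids, measured 7.84, 7.62, 9.0, 9.86 and 8.25 on LFD 1 to 5 and 5.00 on HFD 5 and 6.91 to 7.84 on the other HFD arrays. Its difference was 1.52 ± 0.42, and 0.79 without HFD 5 and LFD 4. Ttll9, a tubulin-modifying ligase, differed by 1.53 ± 0.49, with LFD 4 at 10.57 as the highest array, and by 1.03 without that array, no longer called. Its 3 probes differed by 0.11 to 2.00. Cfap45, a cilia and flagella protein, differed by 1.08 ± 0.30 without overlap, Cpn1, a subunit of carboxypeptidase N, by 0.85 ± 0.23, Usp35, a deubiquitinase, by 1.01 ± 0.34, and Asic5, a bile acid-sensitive ion channel, by 0.85 ± 0.27. Usp35 lost its call under 14 of 28 alternatives and Asic5 under 9. Without LFD 4 Asic5 differed by 0.78 and was not past the criteria, with 4 of the 6 HFD arrays well above background. Of 9 erythrocyte genes none was called, though 8 were higher, with a median of 0.66 and with LFD 1 highest for Hba-a2, the most abundant, at 17.36. The erythrocyte median was 0.31 without LFD 1, with 7 of 9 higher, 0.83 without LFD 4 and 0.97 without HFD 3.

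The 11 arrays lay on 3 slides, with HFD in slide columns 1 and 3 and LFD in columns 2 and 4, so that slide column and diet cannot be told apart. Slide 1 held HFD 1 and 2 and LFD 1 and 2, slide 2 held HFD 3 and 4 and LFD 3, and slide 3 held HFD 5 and 6 and LFD 4 and 5. The 30 genes named above as called were chosen on these same arrays, so that their differences within slides are given as values and not as support. They ran from near 0, as for Ttll9 at 0.03 on slide 1 and Tnfrsf13c at -0.08 on slide 2, to 3.14 for Ttll9 on slide 3. In 25 of them the difference was largest on slide 3 and in 5 on slide 2. Gdf15 differed by 0.69, 0.86 and 1.74 on slides 1 to 3, Chac1 by 0.74, 0.61 and 2.64, and Ccr7 by -0.63, -0.89 and -2.08. Fasn differed by 0.86, 1.61 and 0.67 and Plk3 by 0.74, 1.02 and 0.92, which were not largest on slide 3. With slide as a fixed block 429 probes were called, 319 of them among the 356.

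**Figure D5:**
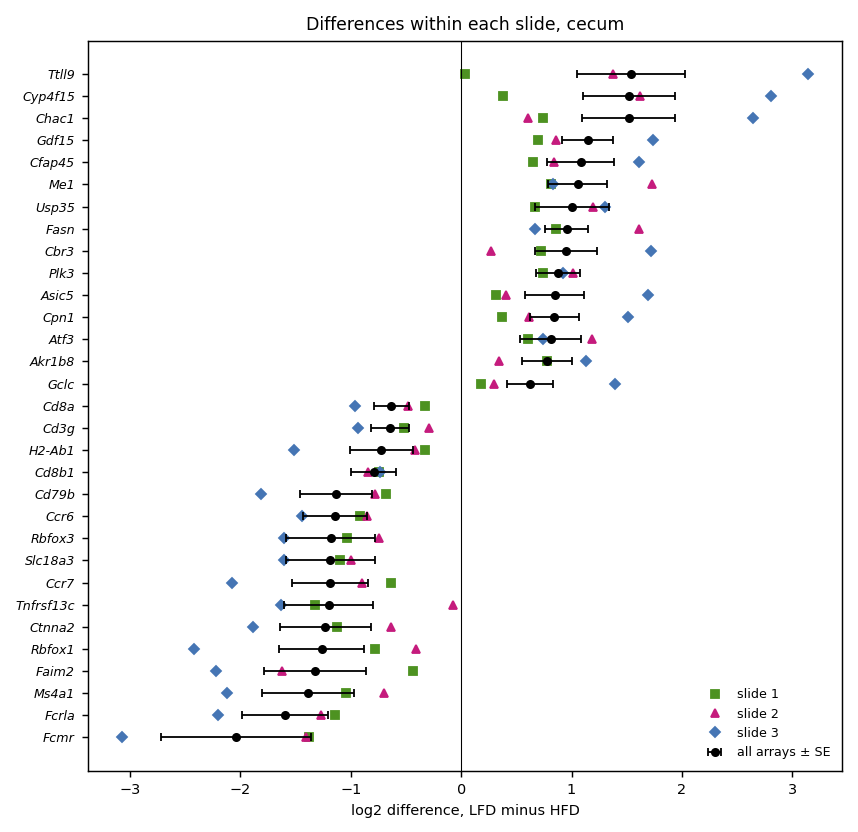
Log2 difference (LFD minus HFD, x axis) of the 30 called genes named in the text and of H2-Ab1, which was not called, over all arrays (black, with SE) and within each of the 3 slides (coloured symbols, with no replicate error of their own). The genes were chosen on these same arrays, and slide 3 is the farthest from 0 for most, as for Ttll9 at 3.14 and Fcmr at -3.07.

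The liver of mice on the same diets was used to see which differences were particular to cecum. In 1 model of all 46 arrays, normalised together, the LFD minus HFD difference itself differed between cecum and liver in 20 of 55681 probes at an adjusted P under 0.05 in limma, 0.0359%. Among the named genes this held for Cd79b, at -1.14 in cecum and 0.79 in liver, and for Asic5, at 0.84 in cecum and -0.77 in liver, with adjusted P = 0.039 and 0.042. With 1 cecum array left out, each of these was no longer past an adjusted P of 0.05 in 8 of 11 cases, with values up to 0.16 in limma. Cecum and liver samples may come from the same mice, which the labels do not tell, and the model took all arrays as independent, so its SE and adjusted P hold only under that assumption. With only the HFD and LFD arrays of both tissues in the model 0 probes passed. Fasn and Me1 differed in liver by 1.31 and 1.04, and their differences between the tissues were -0.38 ± 0.64 and 0.0018 ± 0.47, so that a tissue difference was not detectable. Gdf15 differed in liver by -0.89 and its tissue difference of 2.01 ± 0.65 had adjusted P = 0.45 in limma.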

How the data were processed

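Each RNA was hybridised to a one-colour Agilent mouse array, whose deposited files give the intensity of every spot as read by Feature Extraction 10.7.3.1, with the processed intensity already background-subtracted by that software. The authors also deposited a table of log2 values, which followed log2 median signal (r between 0.9976 and 1 over the cecum arrays, 55681 of 55821 rows matched). How the authors treated background in these values is not given in the sources used here, and it served as an alternative.

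The processed intensities of spots that were neither controls nor outliers were put on the log2 scale, normalised by cyclic loess over the 22 cecum arrays (span 0.7), and averaged over the spots of a probe. Differences were tested with limma 3.58.1 in R 4.3.3 (with the package data.table, version 1.17.8) in 1 fit of the 4 cecum diets, and P values were adjusted by Benjamini-Hochberg over all probes. Following the study's criteria, a probe was called at a fold over 1.5 and an unadjusted P under 0.01. The precision is limited by the number of arrays. Probes were named through their accession in the RefSeq table of GRCm38.p6, used for names only, which gave 27509 of 55681 probes a symbol. The limma steps were tested on simulated data.

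The named genes are the 12 largest called rises and falls on LFD among known genes well above background on every array of the higher diet, up to 4 called members and the brightest member of each of 32 lists, the genes the study measured by PCR, the brightest adipocyte genes, and any gene past adjustment. A gene outside this rule is given as a list member or as chosen after its values were seen. Muc16 is not analysed here, and some genes that the rule or the lists hold are not reported here. The genes, lists and tests were chosen with earlier results of these data known. Alternatives changed the background correction, normalisation, filters, blocks (slide, slide row, scan day, replicate number) and the arrays used. Arrays of the inulin diets entered through the normalisation, the shared fit, the distances between arrays and the model of both tissues.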

Additional observations from a re-analysis of the deposited data

Results flagged for a closer look

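Single arrays stood apart from the others of their diet, by the gap to the nearest other array, in 27 of 150 tests of a named gene in 1 diet (18%) and in 11 of 64 tests of a list level (17.2%), where chance gives about 1 in 20. Most of these were HFD 5. On that array the log2 signals of Fabp2 (18.25), Zg16 (18.53), Tff3 (17.73), Muc2 (15.93), Clec2h (16.54), Acaa1a (15.62), Egfl7 (13.27), Gzma (14.12) and H2-Ab1 (16.79) were above those of the other HFD arrays. Those of Guca2a (17.43), Cyp2c55 (14.86), Slc26a3 (12.70), Prdx6 (16.45), Pparg (12.57), Cela1 (9.01) and Cyp4f15 (5.00) were below them. Of these Cyp2c55, Slc26a3 and Guca2a mark the surface cells of the large intestine and Fabp2 and Clec2h are abundant in the small intestine. The list levels of HFD 5 were high for the small intestine (16.13), antimicrobial proteins (12.52), MHC class II (12.63), sugar uptake (11.92) and the unfolded protein response (11.59), and low for fatty acid oxidation (12.05). The small intestine list moved with each of them on this array, and its part in them was not tested.

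On the other HFD arrays, HFD 2 was low for Ccr6 (8.21) and HFD 4 for Isg15 (14.10) and for the interferon response list (10.61). Among the LFD arrays, LFD 2 was high for Faim2 (6.22), Kit (10.55), Cd24a (12.79) and Acaa1a (15.78) and for the sugar uptake (11.32) and enteroendocrine (10.67) lists, and LFD 3 was high for Hspa8 (17.03) and low for Isg15 (14.80). LFD 4 was low for Cfd (3.36), Cldn5 (8.59) and Snap25 (14.22), and for the adipocyte (8.42) and T cell (8.52) lists.

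The response to LFD differed between cecum and liver for Asic5, by 1.61, and for Cd79b, by -1.93, both past an adjusted P of 0.05 in the limma interaction. With 1 cecum array left out each was past that adjusted P in 3 of 11 cases, the values lying between 0.0397 and 0.161 for Asic5 and between 0.0123 and 0.161 for Cd79b in limma, both highest without LFD 4. With scaling to the 75th percentile the adjusted P was 0.052 and 0.055 in limma. The processed log2 values of the series gave an adjusted P of 0.107 for Asic5 and 0.0071 for Cd79b in limma. With only the HFD and LFD arrays it was 0.15 for Asic5 and 0.12 for Cd79b.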

How the results depend on the processing

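The precision rests on 5 and 6 arrays, and no named gene passed adjustment with all of them. The number of called probes, 356, was 121 with normexp, 149 without background correction, 151 with the authors' processed values and 182 among probes well above background, and it lay between 242 (without LFD 4) and 597 (without LFD 2) when 1 array was left out. It was 545 without HFD 5, LFD 2 and LFD 3, and in 22 of 28 alternatives it stayed within 1.5 times the main count. Probes past adjustment numbered 0 to 2 with 1 array left out and 1 without HFD 5 and LFD 4. Probes with a difference between cecum and liver, 20, numbered 11 with scaling to the 75th percentile, 41 with the authors' processed values, 33 among probes above background and 0 with only the HFD and LFD arrays, and 4 (without LFD 4) to 35 (without LFD 2) with 1 array left out. The cause was not tested in any of these. Over the named genes and alternatives, 1812 values kept their direction and side of the criteria, 183 lost a call, 6 gained 1 and 98 turned in sign, and of the list medians 878 stayed within the spread between replicates and 18 moved.

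Labels give both diets the same replicate numbers, but deviations of same-numbered LFD and HFD arrays correlated at 0.0577, 0.148, 0.00502, 0.0636 and -0.162, so the numbers were not taken as pairs. With a replicate block 399 probes were called, 224 higher and 175 lower, 270 of them among the 356, and Egfl7 (-0.071) and Ube2d2a (-0.0023) turned in sign.

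The differences that turned in sign belonged to genes that were not called. With scaling to the 75th percentile they were 0.026 for Pigr, 0.057 for Snap25, 0.026 for Hmgb2, 0.063 for Fabp2 and 0.025 for Atf4, and with quantile normalisation 0.042 for Pigr, -0.016 for Egfl7, 0.082 for Fabp2 and -0.025 for Ube2d2a. With loess over all pairs they were 0.020 for Snap25 and 0.035 for Fabp2, and with loess over cecum and liver 0.0084 for Snap25. Values for Hspa8, Itgam, Muc2, Ube2d2a and Pnpla2 were 0.054, 0.089, 0.041, -0.096 and -0.025 with normexp, 0.046, 0.084, 0.036, -0.098 and -0.029 without background correction, and 0.045, 0.083, 0.035, -0.099 and -0.030 with the authors' values. With slide as a fixed block they were -0.015 for Egfl7 and 0.016 for Snap25, and with slide row added -0.032 for Egfl7, 0.085 for Snap25, -0.0063 for Isg15, -0.0073 for Ube2d2a and -0.070 for Cidec. Snap25 was at 0.0029 with slide as a random block and at 0.0076 with scan day. Without HFD 5, LFD 2 and LFD 3 they were 0.091 for Pigr, 0.11 for Snap25, 0.098 for Hmgb2, 0.060 for Fabp2, -0.012 for Cela1, 0.15 for Clec2h, -0.014 for Cd24a, -0.078 for Ube2d2a, -0.083 for Pnpla2 and -0.13 for Cidec. Without HFD 5 and LFD 4, chosen like the set before it after the data were seen, they were 0.49 for Fabp4, 0.13 for Pigr, 0.012 for Jchain, 0.18 for Snap25, 0.11 for Fabp2, 0.049 for Itgam, -0.094 for Cela1, 0.20 for Clec2h, 0.046 for Atf4, 0.18 for Muc2, 1.27 for Cfd and -0.016 for Pnpla2.

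With 1 array left out the values ran from -0.068 to 0.18 for Egfl7, -0.13 to 0.39 for Cidec, -0.27 to 0.0012 for Sparc, -0.084 to 0.14 for Snap25, -0.15 to 0.42 for Isg15, -0.032 to 0.029 for Ube2d2a, -0.016 to 0.12 for Pnpla2, -0.15 to 0.088 for Pigr, -0.063 to 0.036 for Hmgb2, -0.058 to 0.092 for Fabp2, -0.21 to 0.0040 for Itgam, -0.088 to 0.30 for Cela1, -0.23 to 0.27 for Clec2h, -0.081 to 0.033 for Atf4, -0.34 to 0.054 for Muc2, -0.0037 to 0.14 for Cd24a, -0.79 to 0.30 for Fabp4 and -2.11 to 1.02 for Cfd.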

Other observations

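Cxcr5, Ltb, Txk, Gimap3, Btla, Itgb7 and Ubd, chosen after their values were seen, were called lower on LFD outside the lists. Cxcr5, the receptor that guides B cells into follicles, measured 6.604 ± 0.35 on the HFD arrays and 5.48 ± 0.18 (SD) on the LFD arrays, a difference of -1.13 ± 0.22 (SE) without overlap. Ltb, lymphotoxin beta, which organises lymphoid tissue, differed by -0.95 ± 0.18, again without overlap, and by -0.82 without LFD 4. The T cell genes Txk and Gimap3 differed by -0.80 each, Btla, an inhibitory receptor of lymphocytes, by -0.96 and Itgb7, a chain of the gut homing integrin, by -0.70, all without overlap. Ubd, an interferon-inducible ubiquitin-like protein, differed by -1.06 and overlapped. Without LFD 4 Btla, Itgb7 and Ubd, at -0.81, -0.57 and -1.10, were not past the criteria.

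Called higher on LFD were Zfand2a, a protein induced by arsenite and heat, at 0.77 ± 0.16 and 0.75 without LFD 4, and Cda, cytidine deaminase, at 0.82 ± 0.26 and 0.69 without LFD 4, which was not past the criteria. Clca4a, a chloride channel accessory protein of the colon surface, differed by 0.62, and Ddc, which makes monoamines, by 0.65, and by 0.48 and not past the criteria without LFD 4. Each of these 4 genes overlapped between the diets.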
